A study of Mus musculus with 13 samples.

Results

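The 8 genes described here encode enzymes that make superoxide, hydrogen peroxide or nitric oxide, together with the proteins that complete some of them. They are Duox2, Duoxa2, Nox1, Noxo1, Noxa1, Cybb, Cyba and Nos2. They were chosen by name, and each was read from the 1 transcript cluster (a set of probes summarised to 1 value) that is annotated to that gene alone. All 8 of 8 were measured, among 19938 genes, and no filter on low values was applied.

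The series measured RNA of 13 pieces of rectum from mice, each on an Affymetrix Mouse Gene 1.0 ST array of its own. The 5 adenocarcinomas (numbers 1, 2, 3, 4 and 6) were cut from rectal prolapses of α6fl/fl Villin-Cre mice aged 53, 60, 60, 64 and 80 weeks, and the 4 pieces of inflamed mucosa (numbers 1, 2, 3 and 4) from non-tumour mucosa beside tumours in such mice aged 53, 60, 60 and 64 weeks. The 4 pieces of normal rectal mucosa (numbers 1, 2, 4 and 6) came from control mice aged 53, 60, 64 and 70 weeks. Adenocarcinomas 1 and 6, inflamed mucosa 1 and normal mucosa 1 and 6 were from females and the others from males. In this model a floxed α6 integrin gene is deleted by Cre under the Villin promoter, which is active in intestinal epithelium, so other cells of the tissue keep the gene. One label field gives the α6fl/fl Villin-Cre genotype to all 13 samples while another calls the normal ones control, and the normal mucosa is taken as control on the second field. Normal mucosa was scraped and the other tissue was dissected from cryosections, so tissue group and way of collection cannot be told apart in either comparison with normal mucosa. The labels do not state that the arrays of a group came from separate mice, and p-values measure the spread between these arrays.

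NADPH oxidases pass electrons from NADPH across a membrane to oxygen. In the colon epithelium NOX1, with its partners NOXO1, NOXA1 and the membrane subunit p22phox (the product of Cyba), makes superoxide, and DUOX2, with its maturation factor DUOXA2, releases hydrogen peroxide at the luminal surface. Both act in defence against gut microbes. Phagocytes use a related oxidase built from gp91phox (the product of Cybb) and the same p22phox, and inducible nitric oxide synthase, the product of Nos2, makes nitric oxide from arginine in macrophages and in inflamed epithelium.

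Duox2 and Duoxa2 lie head to head on chromosome 2, and Cybb lies on the X chromosome. Their promoter windows are shown because the first pair carries neighbouring genes of 1 enzyme, and because Cybb had the largest difference from normal mucosa among the 8 genes. Each window runs from 250 bases before to 50 bases after the gene's start in RefSeq on assembly GRCm38.p6, and 7 of the 8 genes were found in that table. The Duox2 window is chr2:122298178-122298477 on the minus strand, the Duoxa2 window is chr2:122298650-122298949 on the plus strand, and 172 bases lie between them. The Cybb window is chrX:9469275-9469574 on the minus strand. The sequences are written 5′ to 3′ on the strand of the gene, in lower case with motif matches in capitals.
Duox2: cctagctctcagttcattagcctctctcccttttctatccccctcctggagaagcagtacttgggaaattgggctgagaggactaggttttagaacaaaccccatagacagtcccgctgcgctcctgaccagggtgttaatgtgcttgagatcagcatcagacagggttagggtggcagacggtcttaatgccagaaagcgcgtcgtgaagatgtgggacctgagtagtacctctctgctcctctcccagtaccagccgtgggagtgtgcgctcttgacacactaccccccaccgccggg
Duoxa2: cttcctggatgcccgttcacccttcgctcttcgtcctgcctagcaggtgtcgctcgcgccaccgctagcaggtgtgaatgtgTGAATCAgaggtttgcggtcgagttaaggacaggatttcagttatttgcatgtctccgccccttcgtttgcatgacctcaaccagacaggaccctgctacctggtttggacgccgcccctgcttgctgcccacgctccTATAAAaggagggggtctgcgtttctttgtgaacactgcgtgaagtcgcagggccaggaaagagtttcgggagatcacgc
Cybb: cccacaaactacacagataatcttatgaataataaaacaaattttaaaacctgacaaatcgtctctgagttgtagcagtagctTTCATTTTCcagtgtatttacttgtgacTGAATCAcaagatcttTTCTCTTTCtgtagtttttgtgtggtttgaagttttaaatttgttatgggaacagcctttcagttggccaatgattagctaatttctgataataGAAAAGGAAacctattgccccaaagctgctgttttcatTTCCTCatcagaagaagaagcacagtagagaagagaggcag

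Motifs searched on both strands were the TATA box (TATAAA), a STAT site (TTCNNNGAA), the PU.1 core (GAGGAA), an interferon response core (GAAANNGAA), a loose AP-1 site (TGANTCA) and the NF-kB consensus by name. The Duoxa2 window held TATAAA 30 to 25 bases before the start and the AP-1 letters 168 to 162 bases before it. None of these motifs was found in the Duox2 window. The Cybb window held 3 matches to the interferon response core, beginning 167, 123 and 29 bases before the start, 1 to the AP-1 letters beginning 139 bases before it, and 1 to the PU.1 core on the opposite strand within the transcribed part. No 2 matches overlapped in these windows. Among 32851 promoter windows of the same length the shares with a match were 13.6% for TATAAA, 8.3% for the STAT site, 28.3% for the PU.1 core, 8.56% for the interferon response core, 7.81% for the AP-1 letters and 4.51% for the NF-kB consensus. Such matches describe letters in a window and not binding.

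Values are the deposited log2 expression values (RMA, a method that corrects background, gives all arrays the same distribution of values and combines the probes of a cluster), and a difference of 1 is a 2-fold change. Differences were tested with limma in 1 fit of the 3 groups over all 19938 genes, and a gene was called higher or lower at a Benjamini-Hochberg adjusted p below 0.05. Array medians lay between 6.41 and 6.59. The number of arrays limits the precision. Transcripts absent by sex read up to 5.57, and every value of the 8 genes was above that. Xist lay at or above 10.95 on female arrays and at or under 5.37 on male arrays.

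Normal mucosa 1 stood apart within its group. It was at least 1 log2 unit above the next normal array in 4 of the 8 genes (Duox2, Duoxa2, Cybb and Nos2), against 347 of all genes (1.74%). Its mean level of 5 pan-leukocyte markers was 9.06, where the other normal arrays lay between 6.80 and 7.16, and its mean level of 14 neutrophil markers was 7.27, where the others lay between 6.15 and 6.32. Differences of the 8 genes from normal mucosa are therefore given with and without this array, and list counts where they depended on it. Other genes are given both ways only in places, and their sizes refer to all arrays unless stated. Normal mucosa 1 was singled out on these values. Leaving out the highest normal array of a gene must raise its difference from normal mucosa. Results without normal mucosa 1 are therefore descriptions and not separate tests. The share of all genes called without it is not given here.

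Adenocarcinoma differed from normal mucosa in 4 of the 8 genes. Noxa1, Cybb and Cyba rose and Duox2 fell, while Duoxa2, Nox1, Noxo1 and Nos2 did not pass the test. For all genes, 35.8% were called in this comparison, 16.4% higher and 19.4% lower. In inflamed against normal mucosa 2 of the 8 were called, Noxa1 and Cybb, both higher, where 26.7% of all genes were called, 13.7% higher and 13% lower. In adenocarcinoma against inflamed mucosa 1 of the 8 was called, Cyba, higher, where 7.12% of all genes were called, 2.91% higher and 4.21% lower. The median difference of all genes was -0.10, -0.09 and -0.01 in the 3 comparisons, in the same order. These shares of all genes are also the background for the counts of marker genes given below. In these bulk samples fewer cells of a type and less RNA per cell cannot be told apart.

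**Figure D1:**
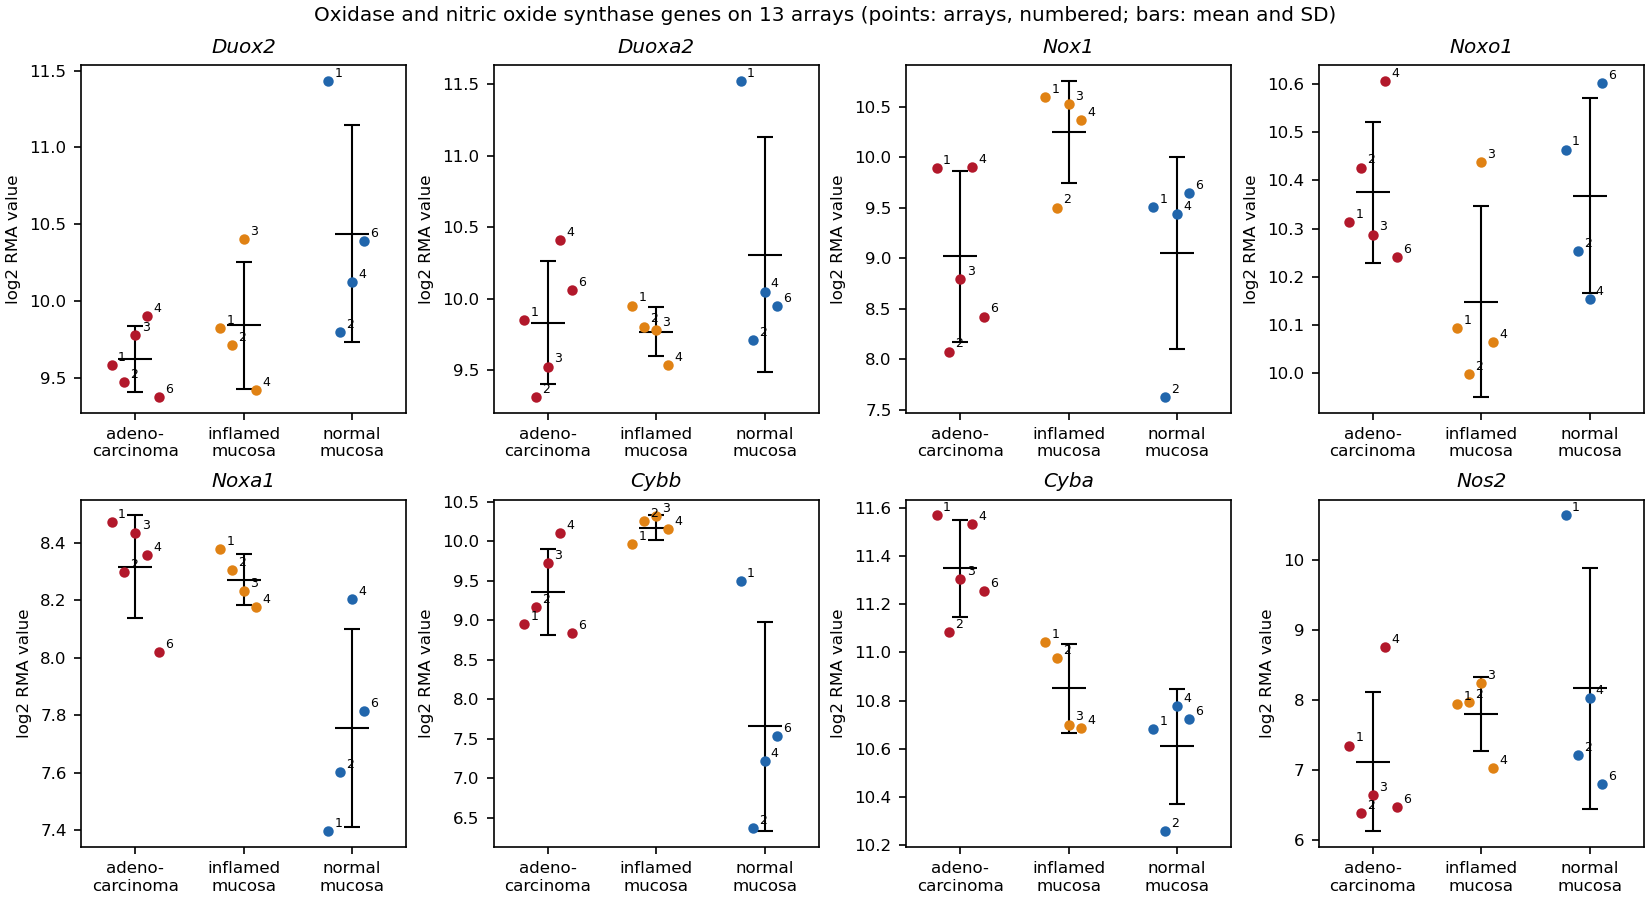
Log2 RMA values of the 8 genes on each of 13 arrays, by tissue group. Points are arrays with their numbers, and bars are the mean and SD of the group (n = 5, 4 and 4). Cyba is highest in the 5 adenocarcinomas, Cybb in the 4 inflamed arrays by mean, and normal mucosa 1 is the highest normal array in Duox2, Duoxa2, Cybb and Nos2.

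The dual oxidase Duox2 was lower in adenocarcinoma. It read 9.59, 9.48, 9.78, 9.90 and 9.38 in adenocarcinomas 1, 2, 3, 4 and 6, 9.83, 9.72, 10.41 and 9.42 in inflamed mucosa 1 to 4, and 11.43, 9.80, 10.13 and 10.39 in normal mucosa 1, 2, 4 and 6. Adenocarcinoma 4, the highest of the tumours, lay above the lowest normal array, so the groups overlapped. The tumour mean was 9.62 ± 0.21 and the normal mean 10.44 ± 0.70 (SD, n = 5 and 4), a difference of -0.81 ± 0.27 (SE), or 1.76-fold lower (limma, adjusted p = 0.0336). Without normal mucosa 1 this became -0.48 and the call was lost (adjusted p = 0.0801), and it was also lost without adenocarcinoma 1 (adjusted p = 0.0514), 2 (0.0683) or 6 (0.0654), or without normal mucosa 6 (0.0522). Inflamed mucosa averaged 9.84 ± 0.41, and its difference from normal mucosa, -0.60 ± 0.29, did not pass (adjusted p = 0.133) and was -0.26 without normal mucosa 1 (adjusted p = 0.354). Adenocarcinoma minus inflamed mucosa was -0.22, with a 95% interval of -0.81 to 0.37.

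Duoxa2, whose product lets DUOX2 leave the endoplasmic reticulum and reach the surface, did not pass in any comparison. Its values were 9.85, 9.31, 9.52, 10.41 and 10.06 in the adenocarcinomas, 9.95, 9.80, 9.78 and 9.54 in inflamed mucosa, and 11.52, 9.71, 10.05 and 9.95 in normal mucosa. Apart from normal mucosa 1 every array lay between the lowest and the highest tumour. The adenocarcinoma minus normal difference was -0.47 ± 0.31 (adjusted p = 0.237) and became -0.07 without normal mucosa 1, with an interval of -0.51 to 0.37. Inflamed minus normal mucosa was -0.54 ± 0.33 (adjusted p = 0.220), and -0.13 without that array. Adenocarcinoma minus inflamed mucosa was 0.06 ± 0.31 (adjusted p = 0.961).

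Nox1, the catalytic subunit of the colonic oxidase, averaged highest in inflamed mucosa. Tumours read 9.89, 8.08, 8.80, 9.90 and 8.42, inflamed mucosa 10.59, 9.50, 10.53 and 10.37, and normal mucosa 9.51, 7.63, 9.44 and 9.64. Inflamed mucosa 1, 3 and 4 lay above every other array, and inflamed mucosa 2, the lowest of its group, lay within the range of both other groups. Normal mucosa 2 lay 1.81 below the next normal array. Inflamed minus normal mucosa was 1.19 ± 0.48, a 2.29-fold ratio with a 95% interval of 0.15 to 2.23 on the log2 scale, which did not pass over all genes (adjusted p = 0.0803). Without normal mucosa 2 that difference was 0.72, and without normal mucosa 1 it was 1.34 (adjusted p = 0.0800). Adenocarcinoma minus inflamed mucosa was -1.23 ± 0.46 and did not pass without pairing (adjusted p = 0.141). Adenocarcinoma and normal mucosa averaged 9.02 ± 0.84 and 9.05 ± 0.95, a difference of -0.04 with an interval of -1.02 to 0.95, or 0.11 without normal mucosa 1.

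Noxo1 encodes the organizer protein of the NOX1 complex. It read 10.31, 10.43, 10.29, 10.61 and 10.24 in the adenocarcinomas, 10.09, 10.00, 10.44 and 10.06 in inflamed mucosa, and 10.46, 10.25, 10.15 and 10.60 in normal mucosa. Its whole range over 13 arrays was the narrowest of the 8 genes, 0.61 on the log2 scale. Adenocarcinoma minus normal mucosa was 0.01 (interval -0.25 to 0.26). Inflamed minus normal mucosa was -0.22 ± 0.13 (adjusted p = 0.192) and adenocarcinoma minus inflamed mucosa 0.23 ± 0.12 (adjusted p = 0.332). Without normal mucosa 1 the differences from normal mucosa were 0.04 in adenocarcinoma and -0.19 in inflamed mucosa.

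Noxa1, which encodes the activator protein of the same complex, was higher in both diseased tissues. It read 8.47, 8.30, 8.43, 8.36 and 8.02 in the adenocarcinomas, 8.38, 8.30, 8.23 and 8.18 in inflamed mucosa, and 7.40, 7.60, 8.20 and 7.81 in normal mucosa. Normal mucosa 4 overlapped both diseased groups, and the other 3 normal arrays lay below every other array. The adenocarcinoma minus normal difference was 0.56 ± 0.14 (1.48-fold, limma, adjusted p = 0.00772), which became 0.44 when normal mucosa 1 was left out (adjusted p = 0.0243). Inflamed minus normal mucosa was 0.52 ± 0.15 (1.43-fold, adjusted p = 0.0216). That second call was lost without inflamed mucosa 1 (adjusted p = 0.0541) or 2 (0.0539), or without normal mucosa 1 (0.40, adjusted p = 0.0583) or 2 (0.0640). Adenocarcinoma and inflamed mucosa differed by 0.04 (interval -0.26 to 0.35). Thus of the 3 genes specific to the NOX1 complex, Noxa1 alone passed in a comparison without pairing, and differences between the genes were not tested.

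Cybb, the catalytic subunit of the phagocyte oxidase, showed the largest differences from normal mucosa among the 8 genes. It read 8.95, 9.17, 9.73, 10.10 and 8.84 in the adenocarcinomas, 9.96, 10.26, 10.32 and 10.15 in inflamed mucosa, and 9.50, 6.37, 7.22 and 7.53 in normal mucosa. All 4 inflamed arrays lay above all 4 normal arrays, and the tumours overlapped normal mucosa through normal mucosa 1 alone. The inflamed minus normal difference was 2.52 ± 0.49 (5.73-fold, limma, adjusted p = 0.00224), which became 3.13 when normal mucosa 1 was left out (8.78-fold, adjusted p = 1.47e-05). Adenocarcinoma minus normal mucosa was 1.70 ± 0.47 (3.26-fold, adjusted p = 0.0123), and it became 2.32 without that array (4.99-fold, adjusted p = 6.63e-05). Adenocarcinoma minus inflamed mucosa was -0.81 ± 0.47 in Cybb and did not pass without pairing (adjusted p = 0.388).

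Many markers of leukocytes and of stromal cells were, like Cybb, higher in the diseased tissues than in normal mucosa. Within normal mucosa, array 1 was highest in Cybb and in pan-leukocyte level but lowest in endothelial level, at 5.75. The mean level of 5 pan-leukocyte markers lay between 8.16 and 9.36 in the adenocarcinomas, between 8.75 and 9.13 in inflamed mucosa and between 6.80 and 9.06 in normal mucosa. Macrophage and monocyte markers lay between 7.59 and 8.33 in the adenocarcinomas, between 8.06 and 8.56 in inflamed mucosa and between 6.73 and 7.66 in normal mucosa, and 11 of 15 rose in each diseased tissue. Without normal mucosa 1, 11 rose in adenocarcinoma and 12 in inflamed mucosa. Lyz2, the lysozyme of macrophages, rose by 1.93 in adenocarcinoma and 2.75 in inflamed mucosa, while Mertk, a receptor for dying cells, was the 1 marker called lower in adenocarcinoma, at -1.39 (limma, adjusted p = 0.00123). All 8 fibroblast, 6 endothelial and 8 smooth muscle markers measured were higher in both diseased tissues, and of 7 B and plasma cell markers 3 were higher in adenocarcinoma and 7 in inflamed mucosa. Without normal mucosa 1, 7 of the 8 fibroblast markers were higher in adenocarcinoma. Epithelial markers lay between 11.56 and 11.66 in the adenocarcinomas, between 11.47 and 11.61 in inflamed mucosa and between 11.69 and 11.81 in normal mucosa. Of 12 epithelial markers measured, 1 was higher and 3 lower in adenocarcinoma, and 0 higher and 5 lower in inflamed mucosa. Without normal mucosa 1 the lower counts were 2 and 3. The part of leukocyte, stromal or other cell content in the Cybb differences was not tested.

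Cyba, whose product p22phox is shared by the NOX1 and the phagocyte oxidase, was highest in adenocarcinoma. It read 11.57, 11.08, 11.31, 11.53 and 11.26 in the adenocarcinomas, 11.04, 10.98, 10.70 and 10.69 in inflamed mucosa, and 10.68, 10.26, 10.78 and 10.72 in normal mucosa. Every tumour lay above every array of the other tissues. The adenocarcinoma minus normal difference was 0.74 ± 0.13 (1.67-fold, limma, adjusted p = 0.000811), which became 0.76 when normal mucosa 1 was left out (adjusted p = 0.00175). Against inflamed mucosa the tumours were higher by 0.50 ± 0.13 (1.41-fold, adjusted p = 0.0379). This call was lost without adenocarcinoma 1, 3, 4 or 6, or without inflamed mucosa 2, 3 or 4, with differences between 0.44 and 0.56 over all single arrays left out and adjusted p up to 0.120. Inflamed and normal mucosa averaged 10.85 ± 0.18 and 10.61 ± 0.24, a difference of 0.24 that did not pass (adjusted p = 0.200), or 0.27 without normal mucosa 1.

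Neutrophil markers were also highest in adenocarcinoma, between 7.46 and 8.57 by mean level against 6.30 to 6.52 in inflamed mucosa and 6.15 to 7.27 in normal mucosa. Of 14 measured, 9 rose against normal mucosa and 9 against inflamed mucosa, with S100a9 higher by 2.97 and 3.35. Elane was called lower than in normal mucosa, by 0.37. Mpo, the defining enzyme of neutrophil granules, read at most 5.73 in the adenocarcinomas, 5.67 in inflamed mucosa and 5.97 in normal mucosa. These readings lie close to the 5.57 that absent transcripts reached, so little can be read from them. Mpo and Elane were picked for mention after their values were seen. The part of neutrophils in the Cyba difference was not tested.

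Nos2, the inducible nitric oxide synthase, varied widely within groups and passed in none of the comparisons. It read 7.34, 6.38, 6.63, 8.76 and 6.47 in the adenocarcinomas, 7.94, 7.97, 8.24 and 7.02 in inflamed mucosa, and 10.64, 7.21, 8.02 and 6.79 in normal mucosa. Normal mucosa 1 lay 2.62 above the next normal array, and adenocarcinoma 4 lay 1.41 above the next tumour. Adenocarcinoma minus normal mucosa was -1.05 ± 0.67 (limma, adjusted p = 0.227), which became -0.22 when normal mucosa 1 was left out. Inflamed minus normal mucosa was -0.37 (adjusted p = 0.701) and turned to 0.45 without that array (adjusted p = 0.510). Adenocarcinoma minus inflamed mucosa was -0.68, with an interval of -2.12 to 0.77.

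**Figure D2:**
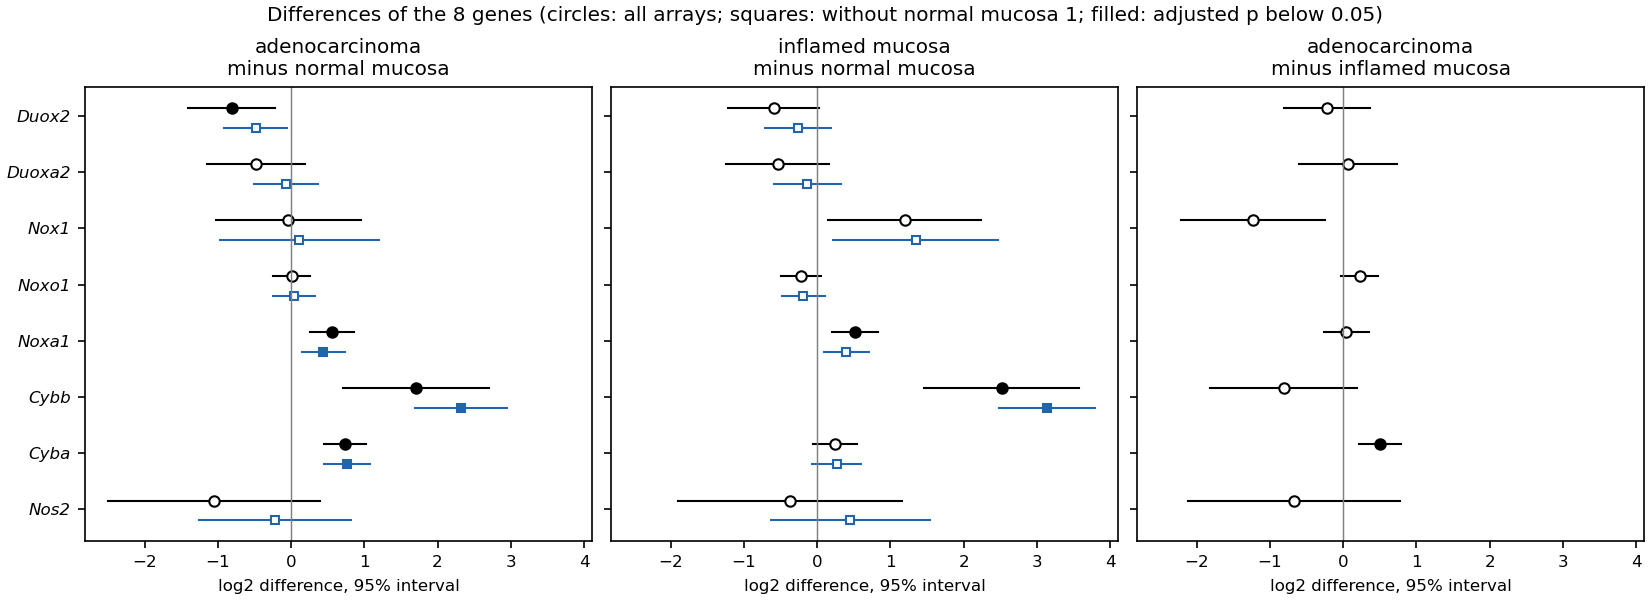
Log2 differences of the 8 genes in 3 comparisons (circles, with 95% intervals) and the same without normal mucosa 1 (squares), filled where the adjusted p is below 0.05. Without that array Cybb is at 2.32 in adenocarcinoma and 3.13 in inflamed mucosa, against 1.70 and 2.52 with it, and Duox2, Duoxa2 and Nos2 lie nearer to 0 in adenocarcinoma.

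Tumour and inflamed arrays of 1 number were taken as pairs, and in pairs Nox1 and Cybb were lower in tumour. Nox1 was lower in the adenocarcinoma of 4 of 4 pairs, by 0.47 to 1.73, with a mean paired difference of -1.08 ± 0.60 (SD, n = 4 pairs). With the pair as a fixed block in a fit of these 2 groups alone, a setting added after the data were seen, Nox1 passed (limma, adjusted p = 0.0185). The share of all genes called in that fit is not given here. With the number as a block over all arrays the Nox1 difference was -1.23 (adjusted p = 0.0319), and with a random block -1.19 (adjusted p = 0.0610). The fixed block over all arrays also joins normal arrays to the others by number, though they were not taken as pairs. In that setting inflamed minus normal mucosa in Nox1 was 1.18 (limma, adjusted p = 0.0208), against an adjusted p of 0.0803 without a block. For that reason it is no further support for the difference.

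Cybb was lower in the adenocarcinoma of 4 of 4 pairs as well, with a mean paired difference of -0.68 ± 0.48. It passed in the paired fit of the 2 groups alone (limma, adjusted p = 0.0462) and did not pass with a block over all arrays (-0.72, adjusted p = 0.528) or a random block (-0.78, adjusted p = 0.261). Pair 4 contributed a difference of -0.05 in Cybb. Cyba was higher in the adenocarcinoma of 4 of 4 pairs, by 0.11 to 0.85, with adjusted p = 0.0399 in the paired fit of the 2 groups alone, 0.0126 with the random block and 0.0555 with the block over all arrays. In Duox2, Duoxa2 and Nos2, 3 of 4 pairs were lower in tumour, and pair 4 went the other way in each of these genes, by 0.48, 0.87 and 1.73.

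**Figure D3:**
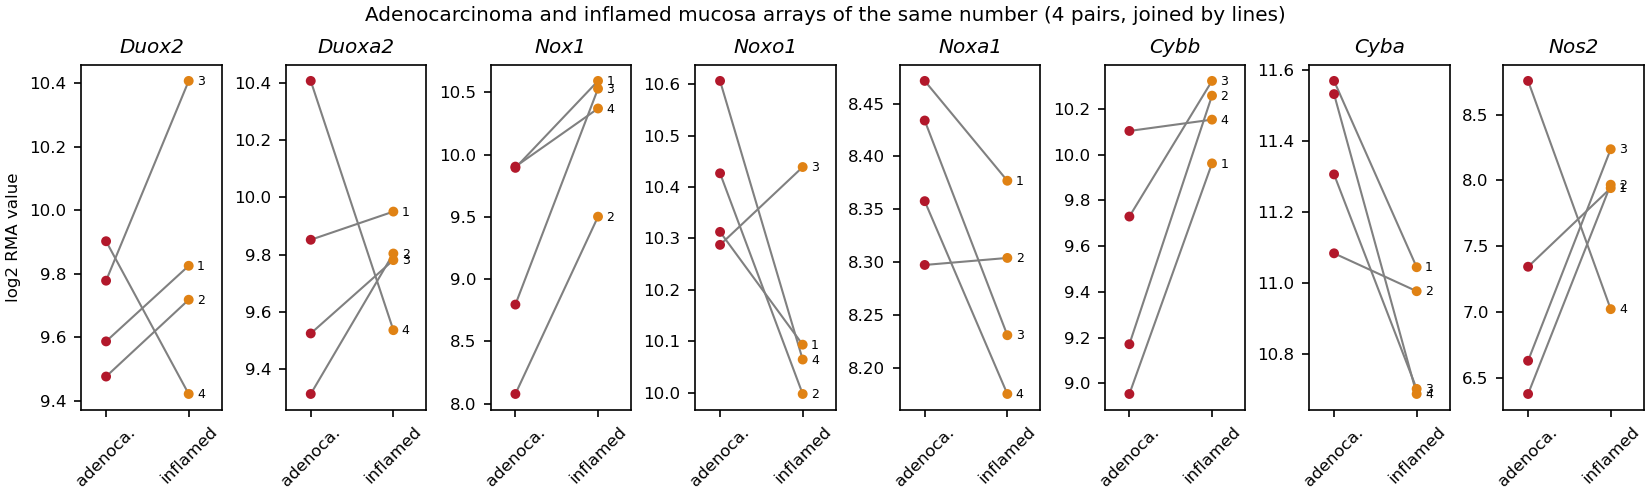
Log2 RMA values of the 8 genes in adenocarcinoma and inflamed mucosa arrays of the same number, joined by lines (4 pairs, numbered at the inflamed array). Nox1 and Cybb are lower and Cyba higher in the adenocarcinoma of every pair, and pair 4 slopes against the other pairs in Duox2, Duoxa2 and Nos2.

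Adenocarcinoma 4 was the highest tumour in 6 of the 8 genes (Duox2, Duoxa2, Nox1, Noxo1, Cybb and Nos2), where it was the highest tumour in 20% of all genes. It also had the highest pan-leukocyte level of the tumours, 9.36, and the highest neutrophil level, 8.57. Normal mucosa 2 was the lowest normal array in 5 of the 8 genes, against 17.1% of all genes, and inflamed mucosa 4 the lowest inflamed array in 5, against 26.1% of all genes. These are descriptions of single arrays and carry no test.

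The genes most alike in pattern over the 13 arrays, by Pearson's r among 17558 genes, differed from member to member, and the groups and normal mucosa 1 shape these values. For Cybb they were Sipa1 (0.987), the leukocyte lysosomal gene Laptm5 (0.983) and the macrophage gene Mpeg1 (0.981). For Duoxa2 they were the cytokine Tnf (0.915), the cytokine receptor gene Il27ra (0.910) and the chemokine Cxcl10 (0.896). Nos2 was most like Il27ra (0.875), the NF-kB inhibitor gene Nfkbia (0.853) and the guanylate-binding protein gene Gbp5 (0.849), and Duox2 most like Ablim1 (0.944), Abhd12 (0.938) and Gbp11 (0.926). In Tnf and Cxcl10 normal mucosa 1 read 8.45 and 8.27, while the other normal arrays reached 7.32 and 6.90. Noxa1 was most like Ddx56 (0.969), Psmg1 (0.969) and Tarsl2 (0.968), Cyba like Pir (0.945), Cct7 (0.926) and Pear1 (0.909), and Nox1 like Hpse (0.855), Ska2 (0.846) and Pmm2 (0.839). The lowest values were those of Noxo1, whose nearest genes were Orm1 (0.777), Carmil1 (0.759) and Tmem150b (0.754).

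Whether the adenocarcinoma minus normal difference depended on sex was tested with an interaction term, in which 0 of the 8 genes and 1 of 19938 genes (Mx1, 0.00502%) passed. At an unadjusted p below 0.05 there were 3 of the 8. Cybb differed by 0.38 in females and 2.88 in males, a female minus male difference of -2.50 ± 0.70 (limma, adjusted p = 0.400). Without normal mucosa 1, which leaves normal mucosa 6 as the only normal female, the Cybb term was -1.51 ± 0.46 and did not pass (adjusted p = 0.360), and 0 of the 8 (2 at an unadjusted p below 0.05) and 30 of all genes (0.15%) were called. Without normal mucosa 6, which leaves normal mucosa 1 alone, the Cybb term passed at -3.48 (adjusted p = 0.00574), where 306 of all genes (1.53%) were called. In both settings the lone normal female is assumed to vary like the other groups. The Duox2 term was -1.18 (adjusted p = 0.491) and the Noxo1 term -0.49 (adjusted p = 0.510).

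Of 9 measured partners and relatives of the oxidases, 1 was higher and 1 lower in adenocarcinoma against normal mucosa (median difference 0.01). Of all genes, 16.4% were higher and 19.4% lower there. None of the 9 passed in inflamed against normal mucosa or in adenocarcinoma against inflamed mucosa, where 26.7% and 7.12% of all genes were called. Nox4, a constitutively active oxidase catalytic subunit, was higher by 0.58 ± 0.18 (limma, adjusted p = 0.0221), at 5.73, 5.76, 5.94, 6.29 and 5.62 in the adenocarcinomas against 5.35, 5.28, 5.33 and 5.19 in normal mucosa. All 4 normal readings lay under the 5.57 that absent transcripts reached, so the size of this difference depends on the background. Cybc1, whose product is a chaperone of the phagocyte oxidase, was lower by 0.36 ± 0.12 (adjusted p = 0.0305).

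The cytosolic phagocyte partners Ncf1 and Ncf4 and the GTPase gene Rac2 rested on normal mucosa 1. With all arrays their adenocarcinoma minus normal differences were 0.32, 0.28 and 0.49 and none passed (adjusted p = 0.195, 0.180 and 0.203). Normal mucosa 1 was the highest normal array in all 3 genes, so leaving it out had to raise these differences. Without it they were 0.52, 0.43 and 0.85 and all 3 were called (limma, adjusted p = 0.0252, 0.0393 and 0.0100). In that fit 5 of the 9 list genes were higher in adenocarcinoma, 2 in inflamed mucosa and 1 in adenocarcinoma against inflamed mucosa. Cybc1 was no longer called. Duoxa1, the factor of the second dual oxidase, was 8.27 in normal mucosa 1 where the other normal arrays reached 6.50, and its difference from adenocarcinoma, 0.01 with all arrays, was 0.49 without that array (adjusted p = 0.00954). Rac1, the widely expressed GTPase that activates NOX1, differed by -0.01.

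Several genes that supply or limit nitric oxide differed between the tissues. Of 15 measured, 7 were higher and 1 lower in adenocarcinoma against normal mucosa (median 0.37), where 16.4% of all genes were higher and 19.4% lower. In inflamed against normal mucosa 4 were higher and 3 lower (median -0.07), or 4 and 1 without normal mucosa 1. Of all genes, 13.7% were higher and 13% lower there with all arrays. Ddah1, which breaks down methylated arginines that inhibit nitric oxide synthases, was higher by 3.49 in adenocarcinoma (11.2-fold, limma, adjusted p = 8.1e-06) and by 3.24 in inflamed mucosa (9.43-fold, adjusted p = 4.12e-05). The arginine importers Slc7a1 and Slc7a2 were higher in adenocarcinoma by 0.90 and 0.72, and in inflamed mucosa by 0.79 and 0.75. Gchfr, which encodes a regulator of the cofactor enzyme GTP cyclohydrolase, fell by 0.89 in inflamed mucosa.

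Arg1, an arginase that uses the same substrate as nitric oxide synthase, was high in tumours and in 1 normal array. It read 9.45, 9.37, 9.02, 9.82 and 9.70 in the adenocarcinomas, 5.86, 5.55, 5.97 and 5.87 in inflamed mucosa, and 9.95, 6.02, 5.71 and 5.83 in normal mucosa. Normal mucosa 1 thus lay above every tumour. The adenocarcinoma minus normal difference was 2.59 (6.03-fold, limma, adjusted p = 0.00813), which became 3.62 when normal mucosa 1 was left out (12.3-fold, adjusted p = 1.91e-08). Adenocarcinoma minus inflamed mucosa was 3.66 (12.7-fold, adjusted p = 0.0042). Against inflamed mucosa, Arg2 and the cofactor enzyme gene Gch1 were higher in adenocarcinoma as well, by 1.48 and 0.94. The neuronal synthase gene Nos1 was higher in inflamed than in normal mucosa by 0.89 and lower in adenocarcinoma than in inflamed mucosa by 1.13. On the same arrays 8 of 8 smooth muscle markers were higher in inflamed than in normal mucosa. Of these, 7 were lower in adenocarcinoma than in inflamed mucosa. Markers of neurons were not among the lists. The part of muscle, neuronal or other cell content in the Nos1 differences was not tested.

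Enzymes that remove superoxide and peroxide were more often higher than lower in tumour. Of 17 measured, 9 were higher and 2 lower in adenocarcinoma against normal mucosa (median 0.29). In inflamed against normal mucosa 6 were higher and 1 lower (median 0.10), and in adenocarcinoma against inflamed mucosa 2 and 1 (median 0.21). Of all genes, 16.4%, 13.7% and 2.91% were higher and 19.4%, 13% and 4.21% lower in these comparisons, in the same order. Without normal mucosa 1, 8 were higher and 2 lower in adenocarcinoma against normal mucosa, and 4 higher and 0 lower in inflamed against normal mucosa. Gpx3, the secreted glutathione peroxidase, was higher by 2.97 in adenocarcinoma (limma, adjusted p = 1.92e-05) and by 3.03 in inflamed mucosa (adjusted p = 4.19e-05). Sod3, the extracellular superoxide dismutase, was higher by 2.77 and by 2.23, and Prdx4, a peroxiredoxin of the secretory pathway, by 1.50 and 1.27. Cat, the peroxisomal catalase, was lower in adenocarcinoma than in inflamed mucosa by 0.47 (adjusted p = 0.0258). All 8 fibroblast markers were higher in both diseased tissues than in normal mucosa, or 7 in adenocarcinoma without normal mucosa 1. The part of fibroblasts in the Gpx3 and Sod3 differences was not tested.

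The list of the stress factor Nrf2 holds its own gene Nfe2l2, its repressor gene Keap1 and targets of Nrf2. Of 10 measured, 3 were higher and 2 lower in adenocarcinoma against normal mucosa (median 0.02). In inflamed against normal mucosa 2 were higher and 3 lower (median -0.06). Of all genes, 16.4% and 13.7% were higher and 19.4% and 13% lower in these comparisons, in the same order. Without normal mucosa 1 the counts were 3 higher and 1 lower, and 2 higher and 2 lower. Slc7a11, the cystine importer, was higher by 2.19 in adenocarcinoma (adjusted p = 0.000207, limma) and 1.45 in inflamed mucosa. Hmox1, haem oxygenase, was higher by 1.50 and 0.69, and higher in adenocarcinoma than in inflamed mucosa by 0.82. Osgin1 was lower by 1.04 in adenocarcinoma and by 0.87 in inflamed mucosa. Among 4 haem peroxidases, which use hydrogen peroxide, Pxdn, a peroxidase of the matrix, was called higher, by 2.69 in adenocarcinoma and 2.08 in inflamed mucosa.

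Of 16 measured cytokines and factors known to induce Duox2, Nox1 or Nos2, 4 were higher and 4 lower in adenocarcinoma against normal mucosa (median -0.15). Of all genes, 16.4% were higher and 19.4% lower there. In inflamed against normal mucosa 0 of the 16 were higher and 4 lower (median -0.31), where 13.7% of all genes were higher and 13% lower. The 4 were Irf1, Il22ra1, Il17c (-0.36) and Il17a (-0.32). Il17a read 5.60 to 6.13 on these arrays, near the 5.57 that absent transcripts reached. Without normal mucosa 1 the counts were 3 higher and 3 lower in adenocarcinoma, and 0 higher and 2 lower in inflamed mucosa. Il1b was higher in adenocarcinoma by 2.60 against normal mucosa (limma, adjusted p = 0.00233) and by 2.69 against inflamed mucosa. Il6 was called higher than in normal mucosa (adjusted p = 0.026), a call lost without normal mucosa 1 (adjusted p = 0.0502). It read 3.90, 5.54, 3.87, 6.16 and 6.09 in the adenocarcinomas and at most 3.90 in normal mucosa, so that 3 of 5 tumours and all 4 normal arrays lay under the 5.57 that absent transcripts reached, and no size is given. Irf1, an interferon-induced transcription factor known to act on Nos2, was lower by 1.31 in adenocarcinoma (adjusted p = 0.000296) and by 0.84 in inflamed mucosa. Il22ra1, the epithelial receptor chain for interleukin 22, was lower by 1.20 and by 0.87. Irf1, like Duox2 and Nos2, was highest in normal mucosa 1, at 11.19, where the other normal arrays reached 10.41.

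**Figure D4:**
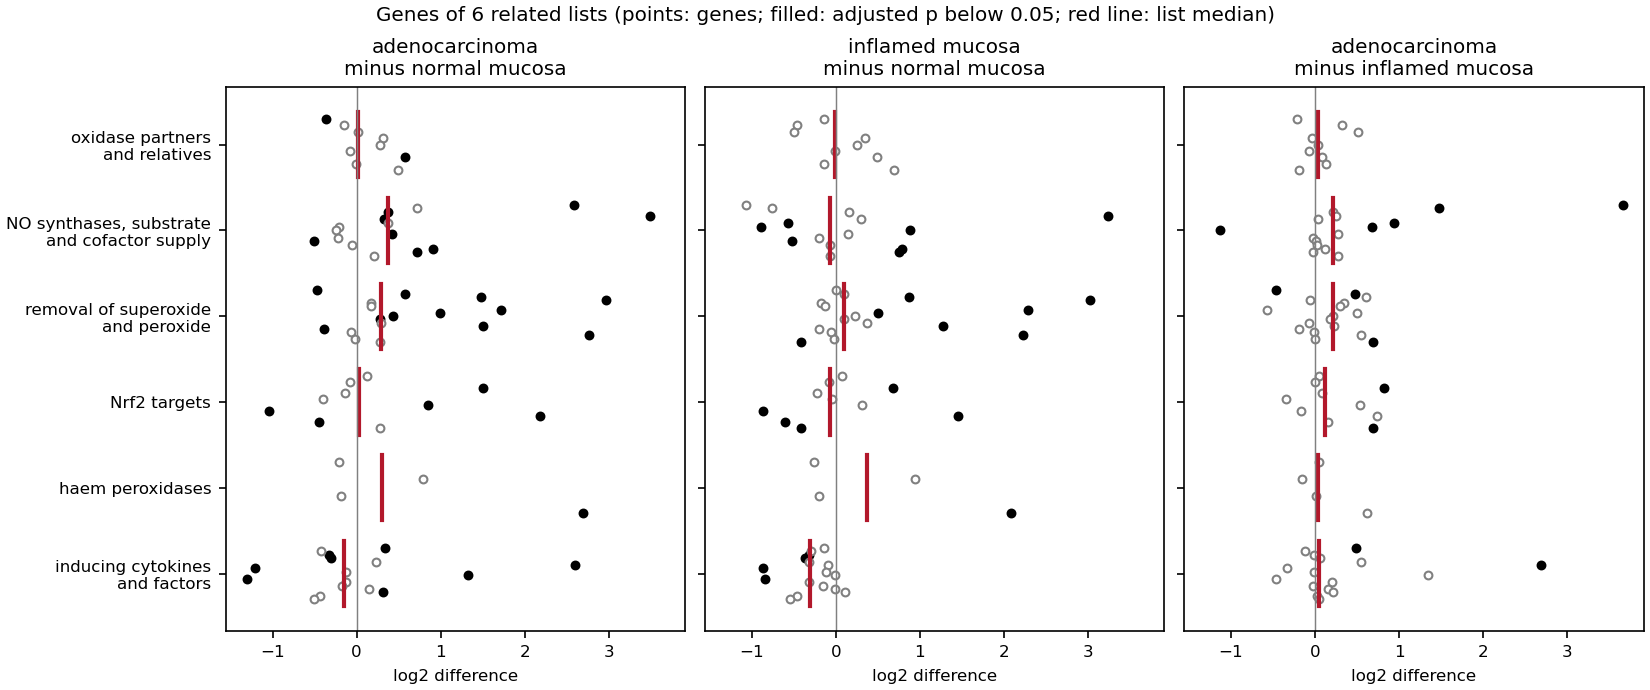
Log2 differences of the measured genes of 6 lists in 3 comparisons. Points are genes, filled where the adjusted p is below 0.05, and the red line is the median of the list. Ddah1 (3.49 and 3.24) and Gpx3 (2.97 and 3.03) lie furthest to the right in the comparisons with normal mucosa and Arg1 (3.66) in adenocarcinoma minus inflamed mucosa, while the oxidase partners lie near 0.

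Markers of mature colonocytes were lowest in adenocarcinoma. Their mean level lay between 8.29 and 9.58 in the adenocarcinomas, between 11.06 and 11.24 in inflamed mucosa and between 12.13 and 12.35 in normal mucosa. In adenocarcinoma 12 of 12 were lower than in normal mucosa, or 11 without normal mucosa 1. Of 12 epithelial markers 1 was higher and 3 lower, or 1 and 2 without normal mucosa 1. Duox2 was called lower in that same comparison, a call lost without normal mucosa 1, and Noxa1 was called higher. Duoxa2, Nox1 and Noxo1 were not called. The part of colonocyte content in the Duox2 difference was not tested.

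**Figure D5:**
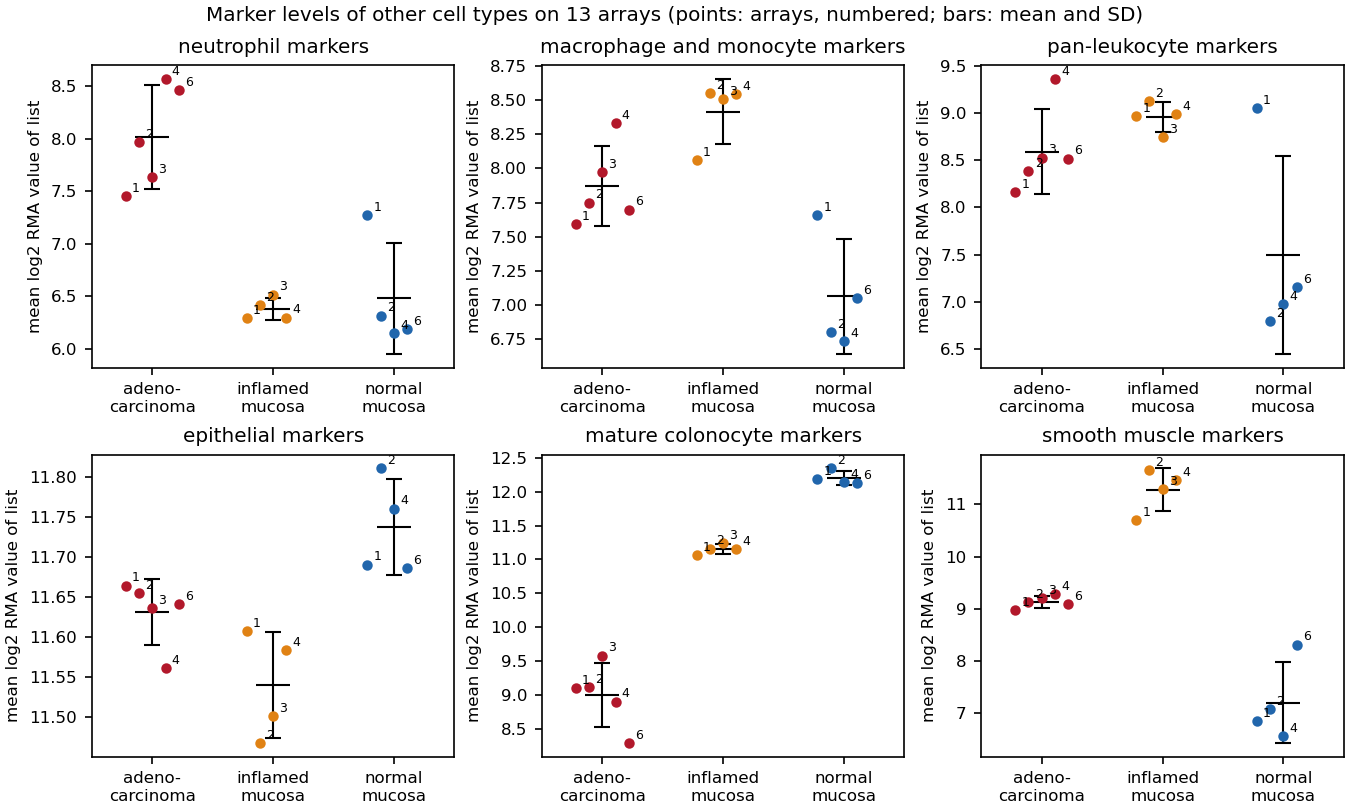
Mean log2 RMA value of 6 marker lists on each of 13 arrays, by tissue group. Points are arrays with their numbers, and bars are the mean and SD of the group. Neutrophil markers are highest in the adenocarcinomas, macrophage and smooth muscle markers in inflamed mucosa and mature colonocyte markers in normal mucosa, and normal mucosa 1 stands above the other normal arrays in the 3 leukocyte panels.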

How the data were processed

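The authors deposited log2 RMA values per transcript cluster, made with Affymetrix GeneChip Command Console 2.0 and Expression Console 1.1, per the design text in the labels. Partek also stands in the submitters' processing notes, with no role stated. RMA removes differences in total RNA and compresses differences of dim genes. The platform annotation (2016) gives 1 gene for 21789 of 35556 clusters, and of several clusters of a gene the one highest by mean was used. Each of the 8 genes has 1 cluster. No source used here names the build of the array's probes. The test was limma (version 3.58.1, R version 4.3.3) with Benjamini-Hochberg adjustment over 19938 genes, checked on simulated data. The simulated arrays were independent, without pairs or an outlying array, so that check does not cover these features of the data. Members and lists were chosen with earlier results of these data known. The text names all 8 genes, up to 4 called genes per list and comparison with the largest differences, other members of the oxidase and nitric oxide lists where needed, and the 3 genes most alike per member. Mpo and Elane were chosen after their values were seen. In all, 15 list genes had no cluster of their own and were left out. Tumour and inflamed arrays of 1 number share sex and age in the labels, and after the group means were removed their values correlated at 0.319, 0.198, 0.199 and 0.387, so they were taken as pairs. Normal arrays, at -0.126 to 0.0413, were not. Alternatives were blocks, covariates, scalings, filters and leaving out each array.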

Additional observations from a re-analysis of the deposited data

Results flagged for a closer look

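Among 69 groups of arrays tested with Dixon's ratio, 24 of them groups of the 8 genes, 10 had an array far from the others, where chance sets apart about 1 in 20. Among the 8 genes only Nox1 had one, normal mucosa 2 at 7.63, with the nearest other normal array at 9.44. Normal mucosa 1 stood high in mean level in the list of nitric oxide synthases and their supply (7.96, nearest 7.46), in neutrophil markers (7.27, nearest 6.32) and in pan-leukocyte markers (9.06, nearest 7.16). Adenocarcinoma 4 stood high in removal of superoxide and peroxide (10.48, nearest 10.31) and low in epithelial markers (11.56, nearest 11.64). Haem peroxidases were low in adenocarcinoma 1 (7.21, nearest 7.60) and in normal mucosa 6 (6.32, nearest 6.90). Macrophage and monocyte markers were low in inflamed mucosa 1 (8.06, nearest 8.51), and fibroblast markers were high in normal mucosa 6 (8.38, nearest 7.35).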

How the results depend on the processing

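The number of arrays and the background of the probes limit what can be seen, and small differences of dim genes are compressed. Leaving out 1 array at a time gave 5344 to 7645 genes called in adenocarcinoma against normal mucosa, 3524 to 5786 in inflamed against normal mucosa and 775 to 1437 in adenocarcinoma against inflamed mucosa, and 3 to 4, 1 to 2 and 0 to 1 of the 8 genes in these comparisons. For the sex interaction it gave 0 to 1 of the 8. With a 2-fold minimum the counts were 1389, 1087 and 409 genes, and 1, 1 and 0 of the 8. A random replicate block called 2279 genes in adenocarcinoma against inflamed mucosa, against 1420 without it. The fixed replicate block in the 2 groups alone, added after the data were seen, called Nox1, Cybb and Cyba there. The share of all genes called in that fit is not given here, so these calls have no background beside them. A fixed replicate block over all arrays also ended the Noxa1 call in inflamed against normal mucosa (0.47, adjusted p = 0.0728, limma). The replicate blocks changed no other call among the 8 genes than those given here and with the results. Differences near 0 changed sign: Noxo1 in adenocarcinoma against normal mucosa was -0.018 with the fixed replicate block, and with sex as a covariate Nox1 in that comparison was 0.021 and Duoxa2 in adenocarcinoma against inflamed mucosa was -0.0019. Leaving out single arrays took Nox1 between -0.51 and 0.20 and Noxo1 between -0.065 and 0.084 in adenocarcinoma against normal mucosa, Duoxa2 between -0.080 and 0.19 in adenocarcinoma against inflamed mucosa, and Nos2 between -0.83 and 0.45 in inflamed against normal mucosa. Causes were not tested. Scaling moved the split of calls over all genes. Inflamed against normal mucosa had 2730 higher and 2592 lower as deposited, 2408 and 3139 after median centring and 2939 and 2053 after cyclic loess, and adenocarcinoma against normal mucosa had 3266 and 3867 as deposited and 3400 and 2911 after cyclic loess. Of the other alternatives, 258 of the differences of the 8 genes kept direction and side of the threshold, 7 lost a call, 4 gained one and 3 changed sign.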
